A study of Spodoptera frugiperda with 15 samples.

Results

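The genes described here are the mitochondrial ribosomal proteins of the fall armyworm, Spodoptera frugiperda, a moth whose caterpillars are crop pests. They are the rows of the deposited expression table whose gene description contains both "ribosomal protein" and "mitochondrial", which gave 90 of 20784 rows. The descriptions name 67 different subunits, 41 of the large (39S) subunit on 57 rows and 26 of the small subunit on 33 rows. A name such as L28 or S25 is the subunit number in the description, and a name such as LOC118270730 is the gene ID of a row. S30 is counted with the large subunit because its description reads 39S, and S12 with the small subunit although its description reads 40S.

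The study measured poly(A) RNA from whole bodies of wild-type animals by RNA-seq. There were 15 libraries in 5 groups of 3: animals treated with emamectin benzoate, animals treated with tetrazolidamide, animals treated with cyantraniliprole, animals treated with spinetoram, and animals labelled control. Of these insecticides, emamectin benzoate belongs to the avermectins and targets chloride channels gated by glutamate, cyantraniliprole is a diamide whose target is the ryanodine receptor, and spinetoram is a spinosyn whose target is the nicotinic acetylcholine receptor. Tetrazolidamide is given by name only. The labels give no dose, exposure time, stage or number of animals per library. Whether replicate libraries stem from different animals is not stated either, so p-values measure the spread between these libraries, which may be technical.

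Mitochondria make a small set of respiratory chain proteins on ribosomes of their own. The ribosomal RNAs are encoded by mitochondrial DNA, but all protein subunits are encoded in the nucleus, translated in the cytosol and imported. Many of these subunits have a counterpart in bacterial ribosomes, others exist in mitochondria only, and tissues rich in mitochondria, such as muscle, depend on them heavily.

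Library totals ran between 50600821 and 77183281 deposited count units, and 1 read pair was worth about 3.78 units. Of the 90 rows, 89 passed a filter on low counts and were tested with 15505 genes in all. The row that did not pass, LOC118267062 for L50, had 11 units in cyantraniliprole library 1 and 0 in the other 14 libraries. Whole-body markers were present: of 46 muscle, 92 midgut, 177 cuticle and 13 fat body rows, 3, 12, 18 and 0 rows had no reads in any library.

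The messages of the mitochondrial ribosome were of moderate abundance and close to each other in level. With the rows of a subunit summed, the 67 subunits had a median level of 15.5 FPKM (fragments mapped, per kilobase of transcript and by library depth), with quartiles at 11.9 and 19.2 FPKM and a range of 6.20 to 57.6 FPKM. All tested genes had a median of 2.66 FPKM, and the 72 rows described as cytosolic ribosomal proteins had a median of 1811.55 FPKM. Large and small subunit proteins had similar medians, 15.2 FPKM over 41 proteins and 15.7 FPKM over 26 proteins.

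L28, a large subunit protein with a bacterial counterpart, had the highest level. It stood at 53.8 ± 3.9 FPKM under emamectin benzoate, 67.5 ± 2.5 under tetrazolidamide, 55.2 ± 2.3 under cyantraniliprole, 54.1 ± 4.8 under spinetoram and 57.3 ± 3.8 in control animals (SD, n = 3 each). L49, which exists in mitochondria only, was second in the sum of its rows with a mean of 43.7 FPKM over the 15 libraries. L53 at 29 and L54 at 26.9 FPKM followed, both also large subunit proteins found in mitochondria only. At the low end stood S27, a pentatricopeptide-repeat protein in mammals, with 6.20 FPKM, and S25 with 6.27 FPKM. The order of neighbours in between cannot be read closely, since the levels of most subunits overlapped with those of many others across libraries.

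**Figure D1:**
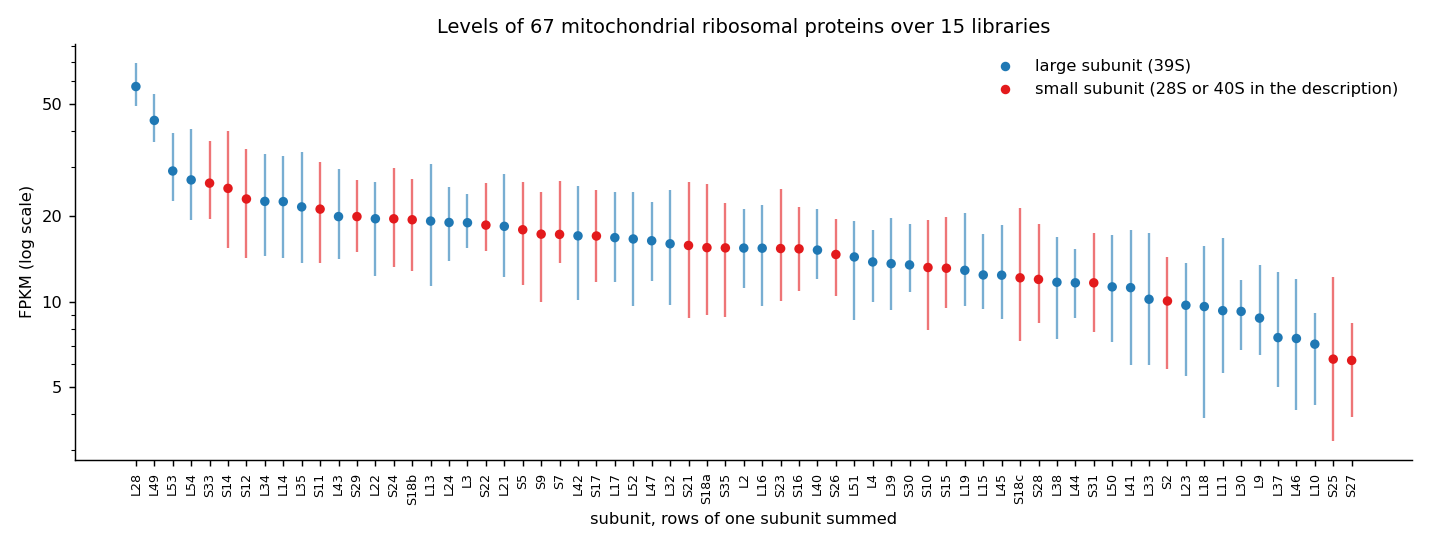
FPKM (log scale) of the 67 mitochondrial ribosomal proteins, ordered by their mean over 15 libraries, with points for the mean and lines from the lowest to the highest library. Most subunits lie between the quartiles of 11.9 and 19.2 FPKM or close to them, L28 stands highest at 57.6 FPKM, and S25 has a long line for its mean of 6.27 FPKM.

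By the naming used for mammals, 40 of the 67 subunits have a counterpart in bacterial ribosomes and 27 exist in mitochondria only. Their median levels were 16.2 and 14.4 FPKM. For 37 subunits the table carries an entry of the KEGG orthology, and their median of 15.8 FPKM was near the 14.9 FPKM of the 30 without one.

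The summed level of the 90 rows differed more between some libraries of a group than between group means. In CPM, counts scaled to library size with TMM factors, the sum was 895, 893 and 785 under emamectin benzoate, 1193, 1136 and 1441 under tetrazolidamide, 839, 897 and 894 under cyantraniliprole, 1025, 821 and 981 under spinetoram, and 1410, 1060 and 895 in control animals. All 3 tetrazolidamide libraries were above all 9 libraries of the other insecticides, whereas the control libraries spanned nearly the whole range. Group means were 858 ± 63.0, 1257 ± 162, 877 ± 32.4, 942 ± 108 and 1122 ± 263 CPM in the same order (SD, n = 3 each). In whole-body RNA, fewer cells of a type and less RNA per cell cannot be told apart.

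In many libraries most subunits lay on the same side of their own mean, while spinetoram libraries 1 and 3 were split more evenly. Of the 67 subunits, 62, 55 and 67 were above their own 15-library mean in tetrazolidamide libraries 1, 2 and 3. The counts were 8, 7 and 0 under emamectin benzoate, 4, 10 and 14 under cyantraniliprole, 40, 2 and 29 under spinetoram, and 67, 50 and 15 in control animals. Tetrazolidamide library 3 and control library 1 were thus high in every subunit and emamectin benzoate library 3 in none. The same counts over all tested genes are not given here. As a share of all count units, with no scaling factor, the members took 0.118 ± 0.00354% under tetrazolidamide, 0.0902 ± 0.0107% over the 9 libraries of the other insecticides and 0.115 ± 0.0212% in control animals. The ratio of tetrazolidamide to the other insecticides was 1.41 in TMM-scaled CPM and 1.31 in shares of units, and the TMM factor of tetrazolidamide library 3 was 0.843, the lowest of the 15.

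**Figure D2:**
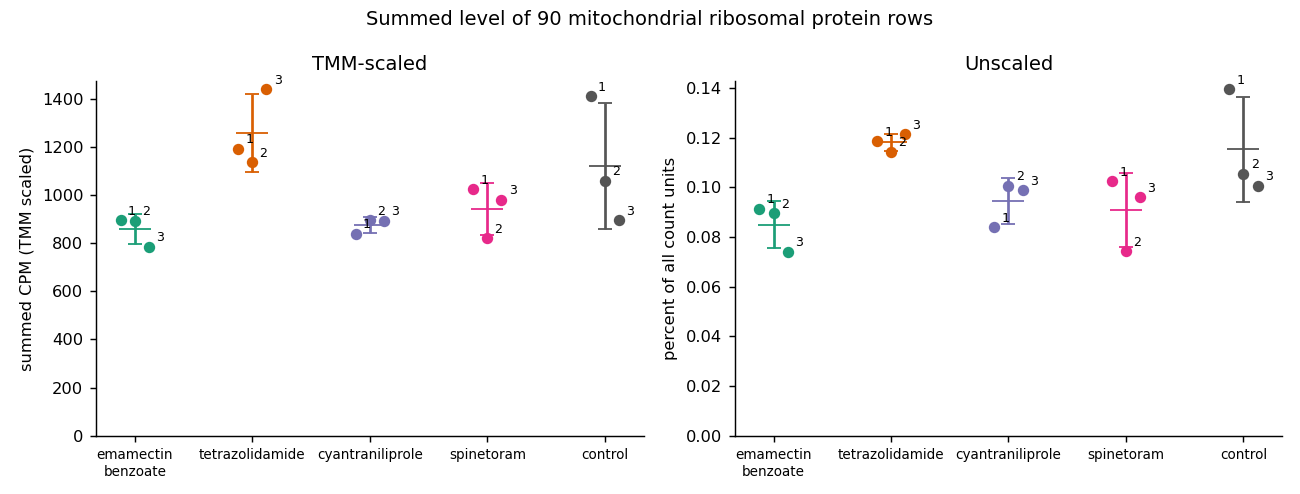
Summed level of the 90 rows by library, as TMM-scaled CPM and as percent of all count units, with library numbers, group means and SD bars. The 3 tetrazolidamide libraries, at 1136 to 1441 CPM, lie above the 9 libraries of the other insecticides in both panels, and the control libraries spread between 895 and 1410 CPM.

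**Figure D3:**
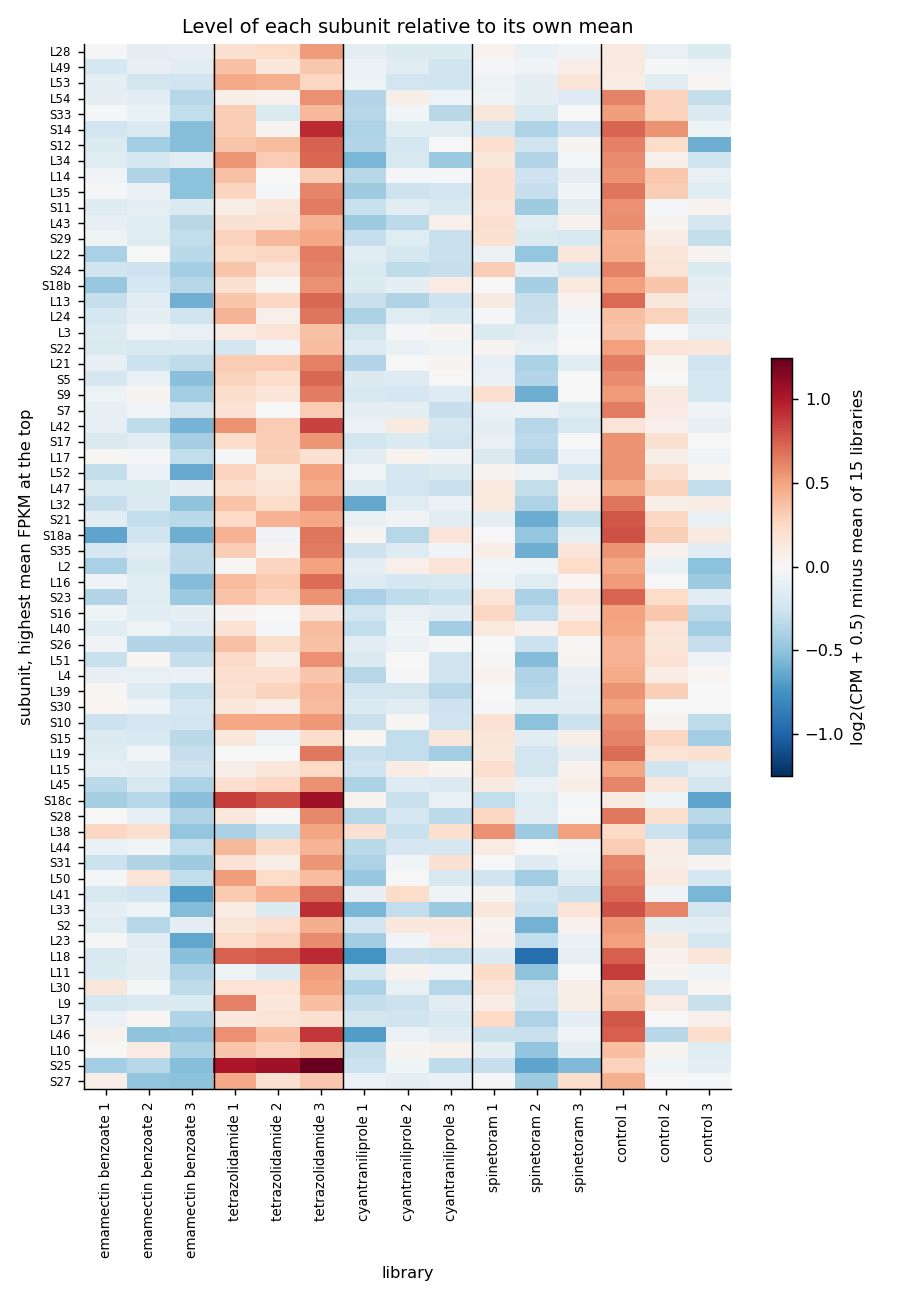
Level of each of the 67 subunits in each library, as log2(CPM + 0.5) minus the mean of that subunit over the 15 libraries, in groups from left to right and with the highest mean FPKM at the top. The columns of tetrazolidamide libraries 1 and 3 and of control library 1 are red for nearly all subunits. Those of tetrazolidamide library 2 and control library 2 are red for 55 and 50 of the 67. S25 and S18c are the deepest red across all 3 tetrazolidamide columns.

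Each insecticide was set against control, to find the genes that respond to it, and emamectin benzoate is described first. Of the 89 tested rows, 1 fell and 0 rose at an adjusted p under 0.05, while 4.09% of all tested genes passed and 1.78% passed as lower. At an unadjusted p under 0.05 there were 28 rows, against 19.8% of all tested genes. The row that fell was LOC118265283, 1 of 3 rows of L4, a protein that lines the exit tunnel of bacterial ribosomes. It had 5.16, 3.29 and 4.72 CPM under emamectin benzoate, against 12, 8.87 and 10.7 CPM in control animals. The groups did not overlap, and the log2 fold change was -1.26 (SE 0.32, adjusted p = 0.048 in edgeR's quasi-likelihood test). The call was lost without any 1 of the 6 libraries (adjusted p between 0.062 and 0.15). When the 3 rows of L4 were summed it did not pass.

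The other members mostly had lower values under emamectin benzoate without passing the test. Their median log2 fold change was -0.44, against 0.02 over all tested genes, and 26 of 89 rows lay below all control libraries, against 11.6% of all tested genes. With rows of a subunit summed, 0 of 67 passed in edgeR and 23 had an unadjusted p under 0.05, again against 19.8% of all tested genes. DESeq2 called 14 of 87 rows with an adjusted p, all lower, while it called 13.1% of all genes and 6.85% as lower. The count in edgeR was 12 rows without control library 3, where 4.53% of all tested genes passed, and 0 without control library 1, where 1.69% passed, and the median was -0.61 and -0.20 in these fits.

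Cyantraniliprole against control gave a like picture. Of 89 rows 1 fell and 0 rose, against 2.62% called among all tested genes, 0.626% as lower. At an unadjusted p under 0.05 there were 33 rows, against 20.2% of all tested genes. The row that fell was LOC118262605 for L51, a large subunit protein found in mitochondria only, with 1.63, 1.52 and 1.55 CPM under cyantraniliprole, against 8.72, 6.03 and 5.86 CPM in control animals (log2 fold change -2.13, SE 0.37, adjusted p = 0.016). The groups did not overlap. The call was lost without any 1 of the 3 cyantraniliprole libraries, with an adjusted p between 0.051 and 0.071. The other row of L51 did not pass, and the sum of both rows did not either.

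The median log2 fold change of the members under cyantraniliprole was -0.40, against -0.03 over all tested genes, and 28 of 89 rows lay below all control libraries, against 10.1% of all tested genes. Of 67 summed subunits 0 passed, with 25 at an unadjusted p under 0.05, again against 20.2% of all tested genes. DESeq2 called 9 of 88 rows, 8 of them lower, while it called 10.1% of all genes and 4.06% as lower. Without control library 3 edgeR called 11 rows and 7.17% of all tested genes, and the median was -0.59, while without control library 1 the median was -0.19.

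In spinetoram against control 1 of 89 rows rose and 0 fell, against 4.01% called among all tested genes, 2.89% as higher. At an unadjusted p under 0.05 there were 14 rows, against 21.4% of all tested genes. LOC118281529, the less abundant row of L49, had 18.1, 13.8 and 11.4 CPM under spinetoram, against 7.54, 6.56 and 5.69 CPM in control animals (log2 fold change 1.13, SE 0.24, adjusted p = 0.028). The groups did not overlap, but the call was lost without spinetoram library 1 or 2 or control library 2 or 3, with adjusted p between 0.057 and 0.11. Of 67 summed subunits 0 passed and 12 had an unadjusted p under 0.05, against 21.5% of all tested genes. DESeq2 called 7 of 88 rows, 1 higher and 6 lower, while it called 12.7% of all genes and 5.22% as lower. The median was -0.30 over the members and -0.02 over all tested genes, and -0.06 over the members without control library 1. Of the 89 rows, 18 lay below all control libraries, against 9.96% of all tested genes. These 3 insecticides and tetrazolidamide share the same control libraries, so their values against control are not independent of each other.

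Tetrazolidamide against control gave the most calls of the comparisons with control. Of the 89 rows 7 rose and 3 fell, and 22.3% of all tested genes passed, 10.9% higher and 11.4% lower, so the share of members called was below that of all genes. With rows of a subunit summed, 5 of 67 subunits rose and 0 fell. They were S25, S18c, L53, L42 and L28. The median log2 fold change over the 89 rows was 0.10, against -0.07 over all tested genes, and it was -0.03 with library totals in place of TMM factors. Of these rows, 10 lay above all control libraries, against 18.2% of all tested genes, and 3 lay below, against 18.4%.

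S18c and S25 rose most among the summed subunits. For S25, a small subunit protein found in mitochondria only, the sum of its 2 rows was 18.1, 18.7 and 21.0 CPM under tetrazolidamide, against 10.7, 8.32 and 7.97 CPM in control animals. No tetrazolidamide library overlapped with a control library, and the log2 fold change was 1.10 (SE 0.16, adjusted p = 0.00087). S18c, a member of the S18 family that mammalian mitochondria hold in 3 forms, had 12.8, 12.1 and 14.8 CPM under tetrazolidamide, against 7.42, 6.54 and 4.13 CPM in control animals. Again the groups did not overlap, and the log2 fold change was 1.13 (SE 0.20, adjusted p = 0.0026). Both calls held without any 1 of the 6 libraries.

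Against control the other S18 proteins did not follow S18c past the threshold. S18a had 13.6, 9.63 and 16.1 CPM under tetrazolidamide, against 17.6, 12.4 and 10.8 CPM in control animals. S18b had 16.5, 14.6 and 21.6 CPM under tetrazolidamide, against 20.7, 18.5 and 13.3 CPM in control animals. In both the groups overlapped widely. S18a did pass against the mean of the other insecticides, but not in 8 of the 12 fits with 1 library left out. In edgeR's test for any difference among the 5 groups, fitted with summed rows, it passed narrowly (adjusted p = 0.047).

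The rises of L53, L42 and L28 were smaller. L28 had 75.3, 77.5 and 95.2 CPM under tetrazolidamide, against 71.0, 61.8 and 58.3 CPM in control animals (log2 fold change 0.38, adjusted p = 0.046). L53 had 49.6, 48.7 and 42.6 CPM under tetrazolidamide, against 38.1, 32.2 and 36.2 CPM in control animals (log2 fold change 0.40, adjusted p = 0.038). L42, which exists in mitochondria only, had 13.3, 11.1 and 16.3 CPM under tetrazolidamide, against 9.92, 9.29 and 8.21 CPM in control animals (log2 fold change 0.57, adjusted p = 0.039). None of the 3 overlapped with control, and each was lost without at least 4 of the 6 libraries, without TMM factors (adjusted p of 0.19 for L28, 0.25 for L53 and 0.12 for L42) and in limma. The number of rows called was 18 without control library 1, where 18.5% of all tested genes passed, and 6 without control library 2, where 16.3% passed.

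More members passed between tetrazolidamide and the other insecticides than in any comparison with control. This comparison sets 3 libraries against 9, while each comparison with control sets 3 against 3, so the counts are not on an equal footing. Tetrazolidamide against the mean of emamectin benzoate, cyantraniliprole and spinetoram tested the difference itself. Of the 89 rows 35 rose and 3 fell, and among all tested genes 19.1% passed, 9.62% higher and 9.44% lower. With rows of a subunit summed, 35 of 67 subunits rose and 0 fell. The median log2 fold change over the rows was 0.50, against -0.03 over all tested genes. Of the rows, 38 lay above all 9 libraries of the other insecticides in every tetrazolidamide library, against 8.13% of all tested genes, and 1 lay below all 9, against 7.13%.

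**Figure D4:**
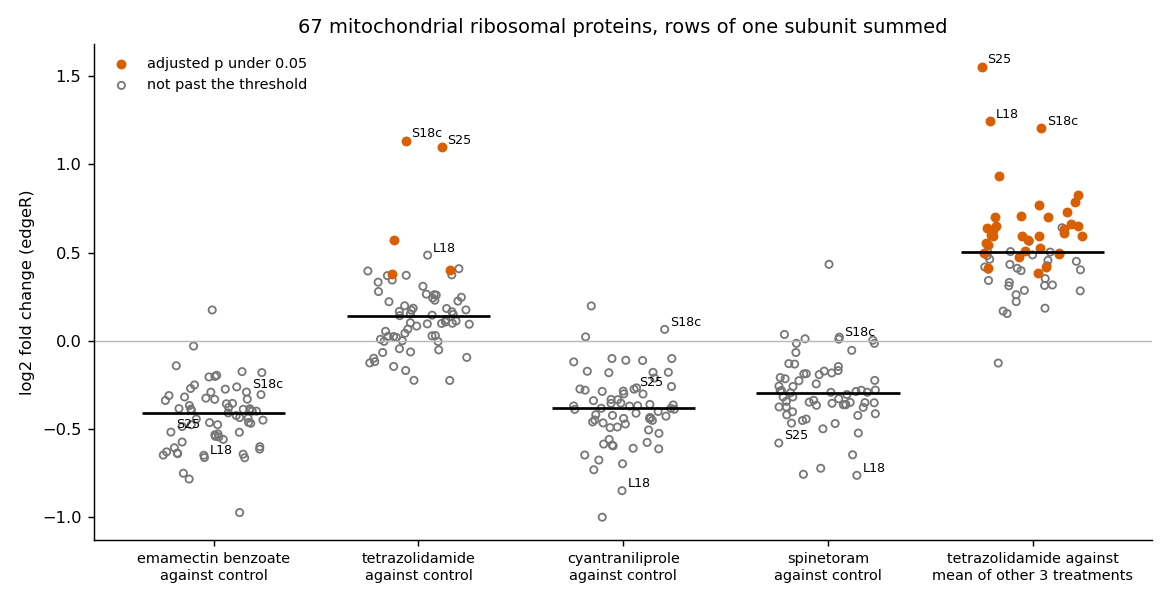
Log2 fold change (edgeR) of each of the 67 subunits, rows summed, in 5 comparisons, with orange points for an adjusted p under 0.05 and a bar at the median. The medians are -0.41, 0.14, -0.38 and -0.29 against control for emamectin benzoate, tetrazolidamide, cyantraniliprole and spinetoram, and 0.50 for tetrazolidamide against the other insecticides, where 35 points are orange.

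How many members passed in this comparison turned on tetrazolidamide library 3. Without it 7 rows rose and 2 fell, against 9.31% called among all tested genes, and the median was 0.38. Without library 1 the count was 20 rows, against 10.8% of all tested genes. With library totals in place of TMM factors it was 24 rows, 21 higher and 3 lower, with a median of 0.39 and 16.1% of all tested genes called. With summed rows, 5 of 67 subunits passed without library 3 and 15 without library 1, against 9.3% and 10.7% of all tested genes. S25, S18c, L18, L42 and L53 stayed called without any 1 of the 12 libraries, and each of the 30 other subunits was lost in at least 1 of these fits.

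The largest rise here was that of S25, with a summed log2 fold change of 1.56 (SE 0.12, adjusted p = 1.5e-05). Its level was 19.3 ± 1.5 CPM under tetrazolidamide (SD, n = 3) and 6.59 ± 0.91 CPM over the other insecticides (n = 9), where every library was between 5.32 and 8.36 CPM. S18c averaged 13.2 ± 1.4 CPM under tetrazolidamide and 5.77 ± 0.83 CPM over the other insecticides (log2 fold change 1.21, SE 0.15, adjusted p = 0.00041). L18, a large subunit protein that binds the 5S RNA in bacterial ribosomes, summed to 10.8, 11.1 and 12.5 CPM under tetrazolidamide and to 3.05 to 5.86 CPM in the 9 libraries of the other insecticides (log2 fold change 1.24, SE 0.21, adjusted p = 0.0018). The 3 control libraries of L18 had 11, 6.56 and 7.08 CPM, so that the first of them reached the tetrazolidamide level.

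Several mitochondria-only proteins rose as well. L42 averaged 13.6 ± 2.6 CPM under tetrazolidamide and 7.67 ± 1.1 CPM over the other insecticides, a log2 fold change of 0.83 (adjusted p = 0.0020). L53 averaged 47 ± 3.8 CPM under tetrazolidamide and 32.7 ± 3.3 CPM over the other insecticides, a log2 fold change of 0.53 (adjusted p = 0.0038). L49 averaged 42.4 ± 3.7 CPM under tetrazolidamide and 32.6 ± 2.3 CPM over the other insecticides, a log2 fold change of 0.38 (adjusted p = 0.011). L46, whose mean was 11 ± 2.0 CPM under tetrazolidamide and 5.74 ± 1.0 CPM over the other insecticides, had a log2 fold change of 0.94 (adjusted p = 0.014). S29, the GTP-binding protein known as DAP3 in mammals, summed to 33.9 ± 2.3 CPM under tetrazolidamide and 23.1 ± 2.7 CPM over the other insecticides (log2 fold change 0.55, adjusted p = 0.019). Without tetrazolidamide library 3 the adjusted p was 0.071 for L49, 0.091 for L46 and 0.094 for S29. L49 was also lost without tetrazolidamide library 1 (0.077) and S29 without tetrazolidamide library 2 (0.062).

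Proteins with a bacterial counterpart took the same direction. L34, a small basic protein of the large subunit, had 14.9, 12.6 and 16.7 CPM under tetrazolidamide and 6.56 to 11 CPM over the other insecticides (log2 fold change 0.79, adjusted p = 0.0082). S14 had 17.6, 14.5 and 27.4 CPM under tetrazolidamide and 9.65 to 12.7 CPM over the other insecticides (log2 fold change 0.77, adjusted p = 0.016). S12, a protein of the decoding centre, had 20.3, 21.1 and 26.9 CPM under tetrazolidamide and 10.8 to 18.3 CPM over the other insecticides (log2 fold change 0.71, adjusted p = 0.033). L10, the base of the stalk that binds translation factors, averaged 8.99 ± 0.27 CPM under tetrazolidamide and 6.41 ± 0.99 CPM over the other insecticides (log2 fold change 0.49, adjusted p = 0.047). In these 4 the tetrazolidamide libraries did not overlap with the other insecticides, but did overlap with control libraries. Without tetrazolidamide library 3 the adjusted p was 0.058 for L34, 0.15 for S14, 0.18 for S12 and 0.16 for L10. L34 and S14 were lost in that fit only, whereas S12 was lost without any 1 of 8 of the 12 libraries and L10 without any 1 of the 12.

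By class, 22 of 41 large subunit proteins and 13 of 26 small subunit proteins rose in this comparison, with median log2 fold changes of 0.50 and 0.51. Of the proteins with a bacterial counterpart 21 of 40 rose, and of those found in mitochondria only 14 of 27, with medians of 0.54 and 0.50. Of all 67 subunits, 66 had a positive log2 fold change, and the exception was L38 at -0.13. S16, with 8.94, 8.71 and 9.94 CPM under tetrazolidamide and 6.96 to 10.6 CPM over the other insecticides, was among the flattest (log2 fold change 0.15, adjusted p = 0.58).

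A test for any difference among the 5 groups passed in 17 of 89 rows, against 22.2% of all tested genes. The smallest adjusted p belonged to LOC118270730 of S25 (5.8e-05), followed by S18c (0.0027), LOC118262605 of L51 (0.0033), LOC118274805 of L18 (0.0033), LOC118270711 of S25 (0.0035) and LOC118262732 of L51 (0.0036). L42, LOC118277429 of S29, LOC118281529 of L49 and L53 came next, with adjusted p between 0.013 and 0.020. Of these 10 rows, 7 belong to subunits listed on several rows, as do 43 of all 89 tested rows.

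Of the 67 subunits, 46 had 1 row and 21 had several, 19 with 2 rows and 2 with 3, so that 44 of the 90 rows share their subunit number with another row. Where a genome carries near-identical copies, or an assembly lists 1 gene in several places, the counting could split reads between rows, so the values of single rows in these 21 sets are uncertain. In each of the 21 sets exactly 1 row has its gene ID in the RefSeq name table of the reference assembly used here. Of all deposited rows, 68.8% have an ID there, and among the 46 subunits with 1 row, 44 do, the others being L37 and L42. In 10 of the 21 sets the more abundant row is the one in the name table.

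In 16 sets all rows lie on the same sequence, and in the 15 pairs among them the gap between rows ran from 7.23 to 4468 kb with a median of 779.5 kb. The 5 other sets, L38, L49, L50, S11 and S29, have a row on an unplaced sequence. The genome build of the coordinates is not given in the sources used here. Over the 15 libraries the 43 tested rows of the sets had a median coefficient of variation of 34.1%, the 21 sums had 23.3%, and the 46 subunits with 1 row had 23.6%.

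In S25 the 2 rows, 897 kb apart, moved in opposite directions under tetrazolidamide. LOC118270730 had 18, 18.7 and 20.9 CPM under tetrazolidamide, against 6.91, 6.10 and 4.30 CPM in control animals, a rise of 1.73 on the log2 scale (SE 0.24, adjusted p = 0.00024). LOC118270711 had 0.138, 0 and 0.130 CPM, or 8, 0 and 8 count units, under tetrazolidamide, against 3.82, 2.22 and 3.67 CPM in control animals (log2 fold change -5.15, SE 0.69, adjusted p = 0.00059). LOC118270711 made up 0.460% of the sum on average under tetrazolidamide, 45.5% under emamectin benzoate, 18.3% under cyantraniliprole, 41.9% under spinetoram and 36.1% in control animals. The shares under tetrazolidamide, of at most 0.763%, did not overlap with those of any other group, the nearest being 15.0% in a cyantraniliprole library.

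L51 showed a like split, with 116 kb between its rows. LOC118262605 had 1.28, 0.556 and 2.03 CPM under tetrazolidamide, against 8.72, 6.03 and 5.86 CPM in control animals (log2 fold change -2.41, SE 0.38, adjusted p = 0.0012). LOC118262732 had 10.8, 10.4 and 13.4 CPM under tetrazolidamide, against 5.32, 5.63 and 4.04 CPM in control animals (log2 fold change 1.21, SE 0.23, adjusted p = 0.0030). The sum of both rows was 12.1, 11 and 15.4 CPM under tetrazolidamide, against 14, 11.7 and 9.90 CPM in control animals, and did not pass. LOC118262605 held 9.61% of the sum on average under tetrazolidamide and 17.1% under cyantraniliprole, but 53.4% under emamectin benzoate, 44.7% under spinetoram and 57.7% in control animals. Each library of tetrazolidamide and cyantraniliprole was at or below 18.2%, and each of the other 9 libraries at or above 44.1%.

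L18 had a scarce row and an abundant row, 2126 kb apart. LOC118274790 had 0 units in all 3 tetrazolidamide libraries, against 1.44, 0.890 and 0 CPM in control animals, which is at least 12.3-fold lower when tetrazolidamide is set at a floor of 3 read pairs over the group (adjusted p = 0.035). The groups overlapped at 0, and the call was lost without tetrazolidamide library 1, 2 or 3 or control library 1 or 2 (adjusted p between 0.064 and 0.086). Against the other insecticides it was at least 8.52-fold lower (adjusted p = 0.042). There too the groups overlapped at 0, in spinetoram library 2. LOC118274805 held 100% of the sum under tetrazolidamide, and also in spinetoram library 2 and control library 3. It rose against the other insecticides by 1.41 on the log2 scale (SE 0.18, adjusted p = 0.00044). Against its control values of 9.52, 5.67 and 7.08 CPM it did not pass.

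**Figure D5:**
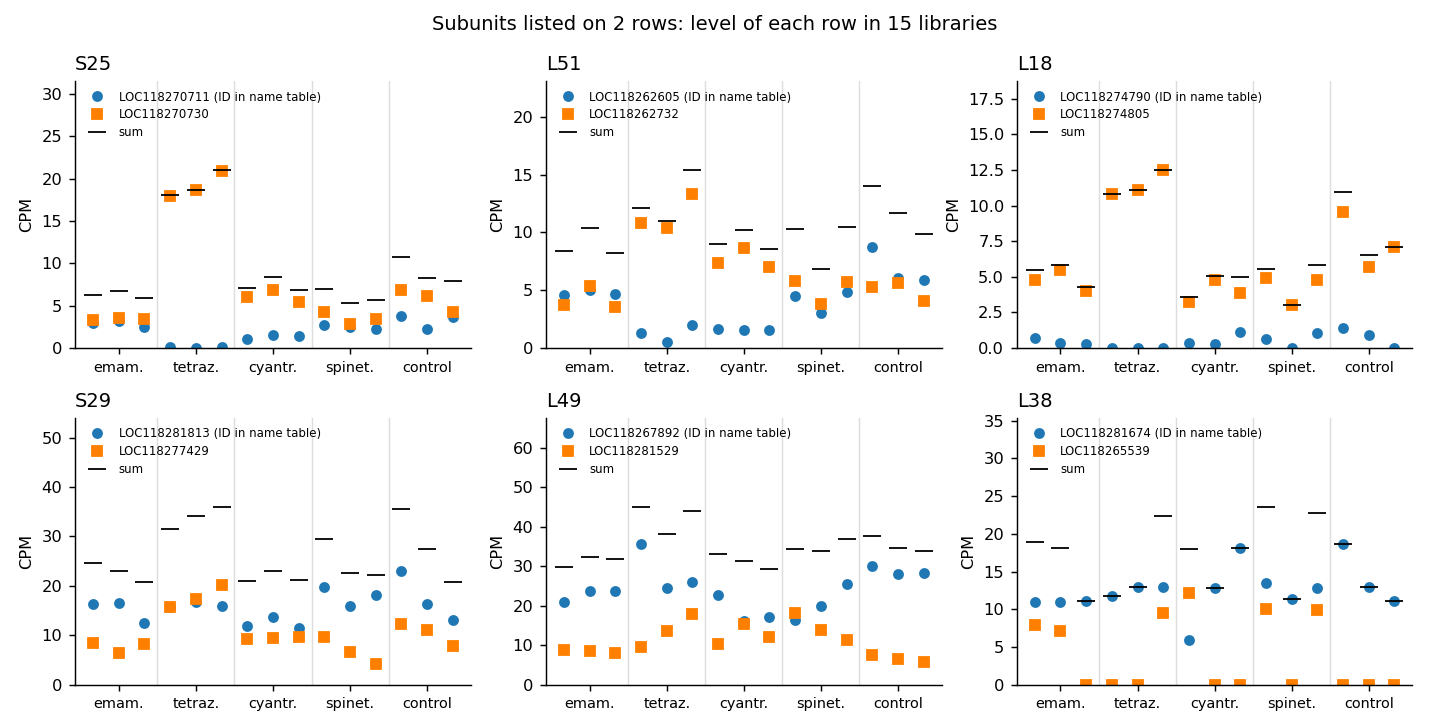
CPM of each row and of their sum in the 15 libraries for 6 subunits listed on 2 rows, with groups from left to right as emamectin benzoate, tetrazolidamide, cyantraniliprole, spinetoram and control, and replicates 1 to 3 within each. In S25 and L51 the row in the name table has its lowest group mean and the other row its highest under tetrazolidamide. The name-table row of L51 is similarly low under cyantraniliprole, and in L38 LOC118265539 is at 0 in 9 libraries.

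In L49 only the less abundant row was called, for tetrazolidamide and spinetoram against control. The less abundant row, LOC118281529, had 9.55, 13.7 and 18 CPM under tetrazolidamide, against 7.54, 6.56 and 5.69 CPM in control animals (log2 fold change 1.06, SE 0.24, adjusted p = 0.0091). It held 27.1% of the sum under emamectin benzoate, 32.7% under tetrazolidamide, 40.3% under cyantraniliprole, 41.4% under spinetoram and 18.6% in control animals, where the highest share of 20.03% was below that of every treated library. The abundant row, LOC118267892, had 21.0 to 23.8 CPM under emamectin benzoate, 24.5 to 35.6 under tetrazolidamide, 16.2 to 22.8 under cyantraniliprole, 16.3 to 25.5 under spinetoram and 28 to 30.1 in control animals. It was below all control libraries under the insecticides other than tetrazolidamide, and no comparison with control called it. In S29, LOC118277429 rose under tetrazolidamide against the other insecticides, with 15.8, 17.4 and 20.1 CPM and 4.15 to 9.75 CPM (log2 fold change 1.17, SE 0.20, adjusted p = 0.0025). The other row of S29, LOC118281813, had 15.6, 16.7 and 15.9 CPM under tetrazolidamide and 11.4 to 19.7 CPM over the other insecticides, which overlap.

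L38 was all or nothing on a row. LOC118265539 had 7.90, 7.19 and 0 CPM under emamectin benzoate, 0, 0 and 9.47 under tetrazolidamide, 12.1, 0 and 0 under cyantraniliprole, 10.1, 0 and 9.93 under spinetoram, and 0 in all 3 control libraries. The 6 libraries above 0 are spread over all treatments, and no comparison called the row. It had the largest fitted rise of any member under tetrazolidamide, which rests on library 3 alone and is 0 without it. The other row, LOC118281674, had between 5.91 and 18.6 CPM in all 15 libraries and one of the smallest variations between group means, 9.07%.

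Among the remaining sets the shares were steady in some and shifted in others. The rows of S7, the closest pair at 7.23 kb, each held close to the same share in every group, with LOC118264201 at 47.2 to 52.4% of the sum on average. L50 rested on LOC118281686, since LOC118267051 had at most 0.847 CPM in any library and LOC118267062 had reads in 1. In L4 the row LOC118265254 held 65.4% of the sum under emamectin benzoate (58.1 to 73.9%) and 33.9% in control animals (27.3 to 37.4%), without overlap. Its share was also above every control library under tetrazolidamide (43.5 to 55.9%), cyantraniliprole (46.6 to 67.3%) and spinetoram (47.7 to 71.6%). In L43 LOC118278611 held 69.8% of the sum under tetrazolidamide, 37.8% under cyantraniliprole and 56.4% in control animals. In S5 LOC118275887 held 53.8 to 56.1% under tetrazolidamide, above every library of the other groups, of which the highest reached 52.8%. Over all 21 sets, 2 had rows called in opposite directions for tetrazolidamide against control, S25 and L51, and 3 for tetrazolidamide against the other insecticides, S25, L51 and L18. The row that varied least between the 5 group means was LOC118267867 of L17, at 5.37%, followed by L15 at 8.56%.

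Some members lie near each other. S29 and S11 lie 29.9 kb apart in the rows LOC118277429 and LOC118276384, and again 44.9 kb apart in LOC118281813 and LOC118281806. S27 and L22 are 8.08 kb apart, L37 and L9 19.2 kb, and L34 and L23 42.4 kb. The neighbours LOC118277429 and LOC118276384 both rose under tetrazolidamide against the other insecticides, by 1.17 and 1.04 on the log2 scale (adjusted p = 0.0025 and 0.014), while the other S29 and S11 rows were not called. LOC118276384 overlapped with the other insecticides, since tetrazolidamide library 2 was below emamectin benzoate library 1. The sum of the S11 rows did not pass.

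Among other genes of mitochondrial translation, factors of the ribosome cycle followed in part. Of 8 translation factors 2 rose and 0 fell under tetrazolidamide against the other insecticides, with a median log2 fold change of 0.37. In that comparison 9.62% of all tested genes were called higher and 9.44% lower. Ribosome-recycling factor, LOC118267417, which frees the ribosome after termination, averaged 28.3 ± 1.6 CPM under tetrazolidamide and 14.8 ± 1.5 CPM over the other insecticides (log2 fold change 0.94, SE 0.12, adjusted p = 0.00045). Initiation factor IF-2, LOC118275863, averaged 13.2 ± 2.8 CPM under tetrazolidamide and 8.44 ± 1.1 CPM over the other insecticides (log2 fold change 0.65, adjusted p = 0.017). Ribosome-recycling factor was also the only translation factor called under emamectin benzoate, where it had 13.9 ± 1.0 CPM against 21.8 ± 4.7 CPM in control animals (log2 fold change -0.65, adjusted p = 0.042). Among all tested genes 1.78% were called lower under emamectin benzoate against control.

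No tRNA-charging enzyme was called higher under tetrazolidamide, against control or against the other insecticides. Of 16 mitochondrial aminoacyl-tRNA synthetases 0 rose and 2 fell under tetrazolidamide against control, where 10.9% of all tested genes rose and 11.4% fell. Both that fell are described as alanine--tRNA ligase. LOC118263761 had 1.81 ± 0.35 CPM under tetrazolidamide and 4.17 ± 0.30 CPM in control animals (log2 fold change -1.20, adjusted p = 0.0024), and LOC118275395 had 2.65 ± 0.56 CPM under tetrazolidamide and 6.39 ± 2.0 CPM in control animals (log2 fold change -1.27, adjusted p = 0.0058). Of 10 genes for ribosome assembly or rRNA modification, 1 rose under tetrazolidamide against the other insecticides, against 9.62% of all tested genes. It was rRNA methyltransferase 3 (LOC118267085, log2 fold change 1.03, adjusted p = 0.0051). The same gene fell under spinetoram against control (log2 fold change -1.13, adjusted p = 0.039), where 1.12% of all tested genes fell.

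Of 16 genes for upkeep and expression of mitochondrial DNA, 1 fell under tetrazolidamide against control, where 11.4% of all tested genes fell. It was the single-stranded DNA-binding protein LOC118282057, which coats the replicating strand. It had 4.23 ± 0.38 CPM under tetrazolidamide and 10.9 ± 3.1 CPM in control animals (log2 fold change -1.36, adjusted p = 0.0035). Against the other insecticides it fell by 0.71 on the log2 scale (adjusted p = 0.039), and the RNA-binding protein LRPPRC, LOC118265522, rose by 0.47 (adjusted p = 0.040). Of 4 subunits of the mitochondrial ribosome with other descriptions, 1 rose in that comparison, against 9.62% of all tested genes. It was LOC118263395, described as GADD45-interacting protein 1 and known in mammals as a large subunit protein, with 5.35 ± 2.5 CPM under tetrazolidamide and 1.37 ± 0.58 CPM over the other insecticides (log2 fold change 2.0, SE 0.37, adjusted p = 0.0035).

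The cytosolic ribosomal proteins had few calls. Of their 72 rows, 1 rose and 2 fell under tetrazolidamide against the other insecticides, with a median log2 fold change of 0.03. The shares over all tested genes were 9.62% higher and 9.44% lower. Against control their medians were 0.00 for emamectin benzoate, 0.08 for tetrazolidamide, -0.03 for cyantraniliprole and 0.16 for spinetoram. The row called higher, LOC118264811, is described as L7/L12, the name of the bacterial stalk protein (log2 fold change 1.10, adjusted p = 0.018). It averaged 23.8 ± 5.9 CPM under tetrazolidamide and 11.3 ± 3.5 CPM over the other insecticides. Its place among the cytosolic rows rests on that description alone, so it may not be a cytosolic ribosomal protein.

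Summed levels of several tissue markers differed between groups. Under tetrazolidamide against the other insecticides, 9.62% of all tested genes rose and 9.44% fell. Cuticle markers summed to 49206 to 63218 CPM under tetrazolidamide, against 26898 to 48051 CPM under the other insecticides and 20322 to 33774 CPM in control animals, and 92 of 144 tested rows rose and 7 fell under tetrazolidamide against the other insecticides. Muscle markers summed to 185352 to 284225 CPM under tetrazolidamide, against 121847 to 184275 CPM under the other insecticides and 125077 to 224541 CPM in control animals. Against the other insecticides 5 of 38 tested rows rose and 3 fell, or 21.1% called, near the 19.1% of all tested genes. Midgut markers summed to 4188 to 5002 CPM under tetrazolidamide, against 4410 to 17853 CPM under the other insecticides and 3017 to 3982 CPM in control animals, and 5 of 74 tested rows rose and 14 fell in the same comparison. Dividing-cell markers summed to 79.9 to 120 CPM under tetrazolidamide, against 85.0 to 194 CPM under the other insecticides and 119 to 226 CPM in control animals. Fat body markers, at 1272 to 3832 CPM, and testis markers, at 118 to 122 CPM under tetrazolidamide, overlapped with control. The part of these tissues in the levels of the mitochondrial ribosomal proteins was not tested.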

How the data were processed

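Poly(A) RNA from whole bodies was sequenced in 15 libraries, 3 in each of 5 groups taken from the labels' treatment. The submitters' processing notes name StringTie 1.3.4d and HISAT2 2.0.4, besides cutadapt 1.9 and the packages DESeq2 and edgeR. The genome build, strand handling and treatment of reads with several positions are not given in the sources used here, so overlapping genes and near-identical copies may share reads. The deposited table, per the file headers, gives an estimated count and an FPKM value per gene and library. The authors' estimated counts are in units of which about 3.78 make 1 read pair (3.70 to 3.83 by library), found from the steps between low values. An FPKM of 0.0001 stands for no reads and was set to 0.

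Counts were rounded and tested as deposited in edgeR 4.0.16 (R 4.3.3): TMM factors, a minimum count of 10 by group, a coefficient per group over all 15 libraries, quasi-likelihood tests, 2-sided, Benjamini-Hochberg adjustment over all 15505 tested genes, threshold 0.05. SE is the log2 fold change over the root of F. The procedure was checked on simulated data. Shares called by DESeq2 are over the genes to which it gave an adjusted p. Alternatives were DESeq2 1.42.0, its size factors, limma 3.58.1 on log2(FPKM + 1) or log2(FPKM + 0.1), other filters, read-pair counts, a replicate block, only the groups compared, and each library left out. Rows of a subunit summed, rows in the name table only, and library totals were chosen after seeing the data. Fold limits against 0 use 3 read pairs over a group and cover counting error only. The RefSeq name table (assembly AGI-APGP_CSIRO_Sfru_2.0) holds 14309 of the gene IDs and 65 of the 90 members. The members and gene lists were chosen with earlier results of these data known. Named rows are those with the smallest adjusted p (up to 10 per comparison), the extremes of level and variation, rows that share a subunit number, and the largest rise and fall under tetrazolidamide; summed subunits and the other examples were chosen after their values were seen. No sequences of the members were used here.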

Additional observations from a re-analysis of the deposited data

Results flagged for a closer look

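The effect of tetrazolidamide differed from the mean effect of the other 3 insecticides in 38 of the 89 tested rows (edgeR, the test of the difference itself, with 19.1% of all tested genes called), and these results are listed because that test passed. The rows with the smallest adjusted p and their log2 fold changes for tetrazolidamide over the other insecticides were LOC118270730 of S25 at 2.20, LOC118270584 of S18c at 1.20, LOC118274805 of L18 at 1.41, LOC118270711 of S25 at -4.56, LOC118262732 of L51 at 1.07, LOC118278219 of L42 at 0.83, LOC118277429 of S29 at 1.17, LOC118278556 of L53 at 0.53, LOC118277918 of L45 at 0.68 and LOC118274044 of L34 at 0.79. Adjusted p ran between 5.7e-06 and 0.0082. In all 10 rows the 3 tetrazolidamide libraries did not overlap with the 9 others. Leaving out tetrazolidamide library 3 raised the adjusted p of LOC118277918 to 0.054 and of LOC118274044 to 0.058; the 8 other rows stayed under 0.05 in each alternative run for them.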

How the results depend on the processing

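Counts are of tested rows that passed, against control unless stated. For emamectin benzoate, with 1 row in the reported fit, DESeq2 gave 14, its size factors 2, no filter 0, an FPKM of 5 in 3 libraries 6, read-pair counts 3, limma 4 with either pseudocount (1 or 0.1), only the groups compared 0 and summed rows 0. For tetrazolidamide, with 10, the FPKM filter gave 5, limma with a pseudocount of 0.1 gave 6, only the groups compared 5, summed rows 5 and name-table rows 6. For cyantraniliprole, with 1, DESeq2 gave 9, the FPKM filter 5, limma 3 and 2, only the groups compared 0 and summed rows 0. For spinetoram, with 1, DESeq2 gave 7, the FPKM filter 7, limma 3 with either pseudocount, only the groups compared 0, summed rows 0 and name-table rows 0. For tetrazolidamide against the other insecticides, with 38, limma gave 25 with either pseudocount and library totals 24. For any difference, with 17, DESeq2 gave 41, the FPKM filter 28 and name-table rows 11. The share of all tested genes called changed with the fit too. DESeq2 called 13.1% for emamectin benzoate, 10.1% for cyantraniliprole and 12.7% for spinetoram, against 4.09%, 2.62% and 4.01% in the reported fit. For most other fits that share is not given here, so the counts cannot be read as traits of the members. The cause was not tested.

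The replicate numbers did not pair the libraries in general: deviations of same-numbered libraries correlated between -0.154 and 0.373, with 4 of 30 pairs over 0.1. Among differently numbered libraries 10 of 60 pairs were over 0.1. The highest same-numbered values joined control library 1 to emamectin benzoate library 1 (0.373) and to cyantraniliprole library 1 (0.26). A replicate block gave 0 rows for emamectin benzoate, 6 for tetrazolidamide, 1 for cyantraniliprole, 0 for spinetoram, 37 for tetrazolidamide against the other insecticides and 13 for any difference. The share over all tested genes is not given for that fit.

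With 1 library left out, the rows called ranged from 0 to 12 for emamectin benzoate, 6 to 18 for tetrazolidamide, 0 to 11 for cyantraniliprole, 0 to 4 for spinetoram, 9 to 35 for tetrazolidamide against the other insecticides and 9 to 33 for any difference. With summed rows these ranges were 0 to 9, 2 to 7, 0 to 13, 0 to 4, 5 to 33 (15 without tetrazolidamide library 1) and 4 to 29 (8 without control library 2 or spinetoram library 3) in the same order. The share called over all tested genes moved as well. For emamectin benzoate, with rows not summed, it was 1.69% without control library 1 and 4.53% without control library 3. For cyantraniliprole it was 7.17% without control library 3. For tetrazolidamide it was 18.5% without control library 1 and 16.3% without control library 2. Against the other insecticides it was 10.8% without tetrazolidamide library 1 and 9.31% without library 3. For most of these fits that share is not given here, so the ranges cannot be read as traits of the members. Medians of the rows ranged from -0.61 to -0.20, -0.12 to 0.30, -0.59 to -0.19, -0.48 to -0.06 and 0.38 to 0.57 over the first 5 comparisons, and with summed rows from -0.60 to -0.19, -0.04 to 0.36, -0.57 to -0.18, -0.48 to -0.06 and 0.38 to 0.57. Among the named rows and summed subunits, 935 values under an alternative kept their direction and side of the threshold, 209 kept their direction only, and the fitted rise of LOC118265539 of L38 was 0 without tetrazolidamide library 3.

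Few read pairs limit the values of LOC118270711 of S25, LOC118274790 of L18 and the scarce rows of L50. The control libraries set the medians against control: without control library 1 the median for tetrazolidamide was 0.30, and without control library 3 it was -0.12.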
